A study of Mus musculus with 5 samples.

Results

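The dystrophin-glycoprotein complex was followed through 8 of its genes, Dmd, Utrn, Dag1, Sgca, Sgcb, Sgcd, Sspn and Dtna, chosen by symbol from 25873 named rows of an RNA-seq table. Each symbol matched 1 row, and all 8 reached the mean of 1 RPKM (reads divided by gene length in kilobases and by library depth) asked of a gene before testing, as did 11543 genes in all. RNA came from cells of the Pax7 lineage in limb muscle of C57BL/6J mouse fetuses at E16.5, sorted as tdTomato+ after CD31, CD45 and Ter119 staining (the Lin- gate). Wild type (WT; Pax7-CreER; Rosa-tdTomato) gave 2 libraries, the Notch1 conditional knockout (Notch1 cKO; Pax7-CreER; Notch1f/f; Rosa-tdTomato) 1 library and the Notch2 conditional knockout (Notch2 cKO; Pax7-CreER; Notch2f/f; Rosa-tdTomato) 2 libraries. All mothers received oral tamoxifen at 240 mg/kg over 2 days from E12.5, so the controls carried the recombinase, the reporter and the drug, without a floxed receptor allele. The Cre acts where Pax7 is active, and deletion is limited to cells of that lineage. The labels do not say that replicates came from separate fetuses. The p-values thus measure only a spread between these libraries, pooled largely over genes, which may be technical.

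The complex ties the actin cytoskeleton of a muscle cell to the surrounding basement membrane. Dystrophin binds actin inside the cell and the tail of dystroglycan at the membrane, while sugar chains on dystroglycan bind laminin outside. Sarcoglycans and sarcospan stabilise this link within the membrane, and dystrobrevin and syntrophins bring signalling proteins to it. Utrophin is the autosomal relative of dystrophin. It lines the membrane of fetal fibres and later concentrates at the neuromuscular junction. Loss of dystrophin or of a sarcoglycan causes muscular dystrophy.

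A gene-level RPKM pools every start of a gene. The 300 bases around a start, most of them before it, are therefore shown for the upstream and the downstream start of Dmd, whose products differ in length, for its relative Utrn, and for Sgca, whose protein is found mainly in striated muscle. They are RefSeq sequences of build GRCm38.p6, written 5′ to 3′ on the strand of the gene. Capitals mark 3 motifs searched on both strands: the E-box CANNTG, read by myogenic factors such as MyoD; the core TGGGAA, which reads TTCCCA on the other strand, of sites for RBPJ, the DNA-binding partner of Notch; and the CArG box of serum response factor. The windows are chrX:82948620-82948919 and chrX:85048045-85048344 on the plus strand, and chr10:12861686-12861985 and chr11:94976278-94976577 on the minus strand.
Dmd upstream start: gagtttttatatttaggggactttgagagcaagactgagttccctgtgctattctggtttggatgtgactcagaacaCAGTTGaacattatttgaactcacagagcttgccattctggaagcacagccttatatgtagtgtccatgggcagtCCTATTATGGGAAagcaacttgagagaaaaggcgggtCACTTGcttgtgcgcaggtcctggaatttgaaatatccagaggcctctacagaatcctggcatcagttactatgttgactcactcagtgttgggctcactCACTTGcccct
Dmd downstream start: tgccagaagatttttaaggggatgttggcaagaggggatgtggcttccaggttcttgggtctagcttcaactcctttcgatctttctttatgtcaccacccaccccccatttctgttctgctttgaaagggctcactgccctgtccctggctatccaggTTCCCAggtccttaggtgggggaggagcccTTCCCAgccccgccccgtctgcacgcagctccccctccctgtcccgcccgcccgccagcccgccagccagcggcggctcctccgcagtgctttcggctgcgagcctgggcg
Utrn: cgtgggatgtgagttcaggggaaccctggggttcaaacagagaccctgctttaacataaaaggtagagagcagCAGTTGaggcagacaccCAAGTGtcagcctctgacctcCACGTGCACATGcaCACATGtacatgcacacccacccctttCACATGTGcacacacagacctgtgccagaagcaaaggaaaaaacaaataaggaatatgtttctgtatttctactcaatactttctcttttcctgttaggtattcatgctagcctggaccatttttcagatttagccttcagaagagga
Sgca: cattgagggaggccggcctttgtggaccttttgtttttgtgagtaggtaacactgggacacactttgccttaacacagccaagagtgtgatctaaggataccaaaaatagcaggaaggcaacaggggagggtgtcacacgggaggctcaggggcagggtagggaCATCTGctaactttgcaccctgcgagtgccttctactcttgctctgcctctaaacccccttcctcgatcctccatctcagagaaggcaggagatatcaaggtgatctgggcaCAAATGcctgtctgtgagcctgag

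The upstream Dmd window held 3 E-boxes, and a CArG box that shared bases with an RBPJ core. The downstream Dmd window held no E-box and 2 RBPJ cores. The Utrn window held 7 E-boxes, some of which shared bases, and the Sgca window held 2. Neither of these windows covers every annotated start of its gene. Coding transcripts of Utrn also begin upstream, as at chr10:12869365, and of Sgca downstream, as at chr11:94973463. Across 32851 mouse windows of this length, 72.3% held an E-box, 25.6% an RBPJ core and 1.63% a CArG box, so the first motif is common. A match is a run of letters and not a shown binding site. RefSeq windows were matched for 7 of the 8 genes.

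The sorted cells carried RNA of all 8 genes in every library, at levels spanning from about 1 RPKM to over 100 RPKM. Implied library totals ran from 20740258 to 28827897 reads. All 8 defining genes of the skeletal muscle lineage were above 0 in each library. Notch1 stood at 7.26 and 13.5 RPKM in WT, 2.33 RPKM in the Notch1 cKO, and 11.8 and 8.39 RPKM in the Notch2 cKO. Notch2 stood at 2.40 and 4.17 RPKM in WT, 3.90 RPKM in the Notch1 cKO, and the libraries labelled Notch2 cKO held 3.35 and 2.03 RPKM, where its difference from WT did not pass (log2 fold change -0.21, SE 0.32, limma adjusted p = 0.905). The labels do not give the exons lost from the floxed Notch2 allele, and a gene-level value pools all exons, so it does not check that label.

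**Figure D1:**
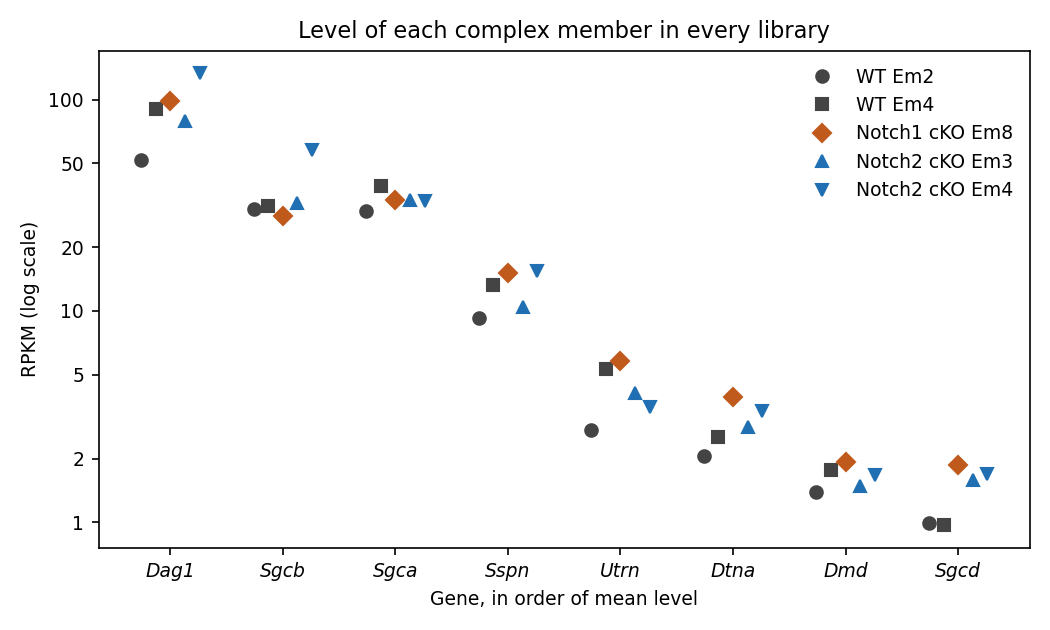
RPKM on a log scale of the 8 genes, ordered by mean level; each symbol is 1 library, with dark symbols for WT (n = 2), the diamond for Notch1 cKO (n = 1) and triangles for Notch2 cKO (n = 2). Dag1 lay highest, from 51.8 to 133 RPKM, and Dmd and Sgcd lowest, from 0.970 to 1.93 RPKM.

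Dmd, the dystrophin gene (ENSMUSG00000045103.17, GRCm38 chromosome X, 82948870 to 85206141, plus strand), was a low-level transcript. It measured 1.40 and 1.77 RPKM in WT Em2 and WT Em4, 1.93 RPKM in Notch1 cKO Em8, and 1.49 RPKM in Notch2 cKO Em3 with 1.67 RPKM in its replicate Em4. Below, paired values follow this order of libraries. The libraries differed by 1.38-fold at most, and the Notch2 cKO values lay within the WT range. Between 428 and 684 reads stood behind each value, at an implied gene length of 13852 bases. The annotation gives the long coding transcript 79 exons and 14910 bases. A short coding transcript of 18 exons and 4438 bases begins at 85048413, past the end of the downstream window shown. Reads of the long and short forms cannot be separated in this table.

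Utrn, the utrophin gene (ENSMUSG00000019820.11, chromosome 10, 12382188 to 12869365, minus strand), stood above Dmd per length in every library. It measured 2.75 and 5.32 RPKM in WT, 5.82 RPKM in the Notch1 cKO, and 4.07 and 3.53 RPKM in the Notch2 cKO. The WT pair enclosed both Notch2 cKO values, and its own gap was 1.94-fold. On the log2(RPKM + 1) scale that gap was 0.75, larger than in 92.9% of genes tested. The ratio of Dmd to Utrn RPKM was 0.509 and 0.332 in WT, 0.332 in the Notch1 cKO, and 0.366 and 0.474 in the Notch2 cKO. The WT ratios spanned both Notch2 cKO ratios, and the Notch1 cKO ratio equalled that of WT Em4 as printed, so this ratio did not separate the genotypes.

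Dag1 encodes both subunits of dystroglycan, the laminin receptor at the centre of the complex (ENSMUSG00000039952.15, chromosome 9, 108204634 to 108263958, minus strand). It was the highest of the 8 genes in all 5 libraries. Its level was 51.8 and 90.7 RPKM in WT, 98.5 RPKM in the Notch1 cKO, and 79.1 and 133 RPKM in the Notch2 cKO. WT Em2 was the lowest library and Notch2 cKO Em4 the highest, but Notch2 cKO Em3 lay below WT Em4. Each replicate pair was wide, at 1.75-fold in WT and 1.68-fold in Notch2 cKO. Per length, Dag1 exceeded Dmd by 37.1 to 79.6 times.

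Sgca and Sgcb, α- and β-sarcoglycan, ranked next, changing order between libraries. Sgca (ENSMUSG00000001508.15, chromosome 11, 94962791 to 94976327, minus strand) measured 29.8 and 39.0 RPKM in WT, 33.4 RPKM in the Notch1 cKO, and 33.5 and 33.1 RPKM in the Notch2 cKO. All 3 knockout libraries lay between the WT values, and no gene of the 8 varied less between libraries (1.31-fold from lowest to highest). Sgcb (ENSMUSG00000029156.11, chromosome 5, 73632749 to 73647790, minus strand) measured 30.3 and 31.4 RPKM in WT, 28.1 RPKM in the Notch1 cKO, and 32.5 and 57.5 RPKM in the Notch2 cKO. Notch2 cKO Em4 stood apart from the other 4 libraries, with 1.77 times the level of its replicate. The ratio of Sgcb to Sgca RPKM was 1.74 there and between 0.805 and 1.02 in the other libraries.

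Sgcd, δ-sarcoglycan (ENSMUSG00000020354.15, chromosome 11, 46896253 to 47988969, minus strand), was at the lower end of the order. It measured 0.995 and 0.970 RPKM in WT, 1.87 RPKM in the Notch1 cKO, and 1.59 and 1.69 RPKM in the Notch2 cKO. All 3 knockout libraries lay above both WT libraries. Of all genes tested, 28.3% had both Notch2 cKO libraries above both WT libraries, and 24.3% had the Notch1 cKO library above both. The Sgcd values rest on 34 and 31 reads in WT, 67 in the Notch1 cKO, and 46 and 68 in the Notch2 cKO. Exact Poisson 95% intervals, which cover counting error only, ran from 0.689 to 1.39 RPKM in WT Em2 and from 0.659 to 1.38 RPKM in WT Em4. They ran from 1.45 to 2.38 RPKM in the Notch1 cKO, and from 1.16 to 2.12 and 1.31 to 2.14 RPKM in the Notch2 cKO, so the WT and Notch2 cKO intervals overlapped. The implied length of 1399 bases is shorter than either coding transcript of the annotation, which have 2450 and 1617 bases.

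Sspn encodes sarcospan, a membrane protein bound to the sarcoglycans (ENSMUSG00000030255.13, chromosome 6, 145931641 to 145965223, plus strand). It measured 9.24 and 13.3 RPKM in WT, 15.1 RPKM in the Notch1 cKO, and 10.4 and 15.5 RPKM in the Notch2 cKO. Both pairs had gaps of similar size, 1.44-fold in WT and 1.49-fold in Notch2 cKO, and they overlapped. Dtna encodes α-dystrobrevin, a cytoplasmic relative of dystrophin that anchors syntrophins (ENSMUSG00000024302.16, chromosome 18, 23415135 to 23659715, plus strand). It measured 2.06 and 2.54 RPKM in WT, 3.90 RPKM in the Notch1 cKO, and 2.82 and 3.35 RPKM in the Notch2 cKO. WT was lowest, Notch2 cKO intermediate and Notch1 cKO highest, without overlap between groups. Of all genes tested, 28.3% had both Notch2 cKO libraries above WT, and 24.3% had the Notch1 cKO library above WT.

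The order of levels was steady. Dag1 held rank 1, Sspn rank 4, Utrn rank 5 and Dtna rank 6 in each of the 5 libraries. Sgca and Sgcb changed places with each other, as did Dmd and Sgcd, since the levels of these neighbours overlapped across libraries. Among all genes tested, Dag1 lay at percentile 88.8 of mean RPKM, and Dmd and Sgcd at 8.73 and 6.08. By the distance between profiles of centred log2(RPKM + 1) over the 5 libraries, the genes nearest to Dmd were 2310015A10Rik (root-mean-square distance 0.0193), Tcf19 (0.0228) and 2410018L13Rik (0.0286). Nearest to Utrn were Tmem204 (0.035), Fbn1 (0.0522) and Pkdcc (0.0527), and nearest to Sgca were Rb1cc1 (0.0103), Sowahc (0.0166) and Trip10 (0.025).

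The comparison of Notch2 cKO with WT asked whether the complex changed when Notch2 was targeted in the Pax7 lineage. No member passed the test (0 of 8; limma, adjusted p from 0.615 to 0.999), where 62 of 11543 genes passed, or 0.537%. Voom on recovered reads called 0 of 8, in a setting where it called 1 of 11541 genes, or 0.00866%. Dag1 was the only member with an unadjusted p under 0.05, as 881 genes had. Its log2 fold change was 0.57 (SE 0.27, 95% interval 0.04 to 1.11, unadjusted p = 0.0363 by limma), a fold of 1.49. That value rests on which replicates are used: leaving out WT Em2 gave 0.18 and leaving out WT Em4 gave 0.97, while it was 0.95 with Notch2 cKO Em3 left out and 0.20 with Notch2 cKO Em4 left out, with adjusted p from 0.12 to 1.

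Sgcb had a log2 fold change of 0.48 (SE 0.27, interval -0.06 to 1.02) in Notch2 cKO, which became 0.88 without Notch2 cKO Em3 but 0.075 without its replicate Em4. Sgcd gave 0.41 (SE 0.30, interval -0.18 to 1.004), and 0.38 to 0.44 when any 1 library was left out. It depended more on the scale, at 0.24 with quantile normalization, 0.68 with a pseudocount of 0.1 and 0.73 with voom. Under median-of-ratios scaling Dag1 gave 0.36, Sgcb 0.27 and Dtna 0.15. Without it, Dtna gave 0.31 (SE 0.32) and Sspn 0.18 (SE 0.30). Dmd, Utrn and Sgca lay near 0, at 0.0015, -0.023 and -0.034. In RPKM + 1, the interval for Dmd ran from 0.659 to 1.52 times WT. Changes within those bounds were not excluded. Dmd had a WT mean of 1.58 RPKM, and at that level the same bounds are wider in RPKM itself. Dmd, Utrn, Sgca and Sspn changed sign when some 1 library was left out. Dmd and Sspn also became negative under median-of-ratios scaling and quantile normalization.

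Both Notch2 cKO libraries lay above both WT libraries for 3 members, Sgcb, Sgcd and Dtna, which is 3 of 8 against 28.3% of all genes tested. None of the 8 lay below both, against 9.44% of all genes. The members' median log2 fold change was 0.24, beside 0.14 for all genes. The count of genes called depended on the WT pair: it was 13 without WT Em2 and 278 without WT Em4. In bulk samples, fewer cells of a type and less RNA per cell cannot be told apart.

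The comparison of Notch1 cKO with WT addressed the same question for Notch1, with 1 knockout library assumed to vary like the others. No member passed (0 of 8; limma, adjusted p = 1 for each), and none had an unadjusted p under 0.05, where 213 genes had one. Across all genes 8 passed limma, or 0.0693%, a count of 5 without WT Em2 and 1 without WT Em4. Voom called 0 of 8 members and 3 of 11541 genes, or 0.026%. Dtna had a log2 fold change of 0.58 (SE 0.39, interval -0.19 to 1.35), Sgcd 0.54 (SE 0.37), Dag1 0.52 (SE 0.33), Utrn 0.49 (SE 0.40) and Sspn 0.41 (SE 0.37). Dmd was at 0.19 (SE 0.37), Sgca at -0.030 (SE 0.33) and Sgcb at -0.13 (SE 0.33). The sign of Sgca turned under quantile normalization and without WT Em4. Several values rested on WT Em2: without it Dag1 gave 0.12, Utrn 0.11, Sspn 0.16 and Dmd 0.083. Dtna (0.47) and Sgcd (0.55) changed less. Without WT Em4, Dag1 gave 0.91 and Utrn 0.86.

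The Notch1 cKO library lay above both WT libraries for 6 members and below both for 1, Sgcb. Over all genes tested these shares were 24.3% and 26.1%. The members' median was 0.45, beside 0.0091 for all genes, and 6 of the 8 had a fold change above 0 in each knockout, although in Notch2 cKO those of Dmd and Sspn fell below 0 under median-of-ratios and quantile scaling. Of all genes tested, 68.1% lay above 0 in Notch2 cKO and 51.5% in Notch1 cKO, so the Notch2 cKO count of members is near the background. The 2 knockouts share their WT libraries, so these values are not independent of each other.

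**Figure D2:**
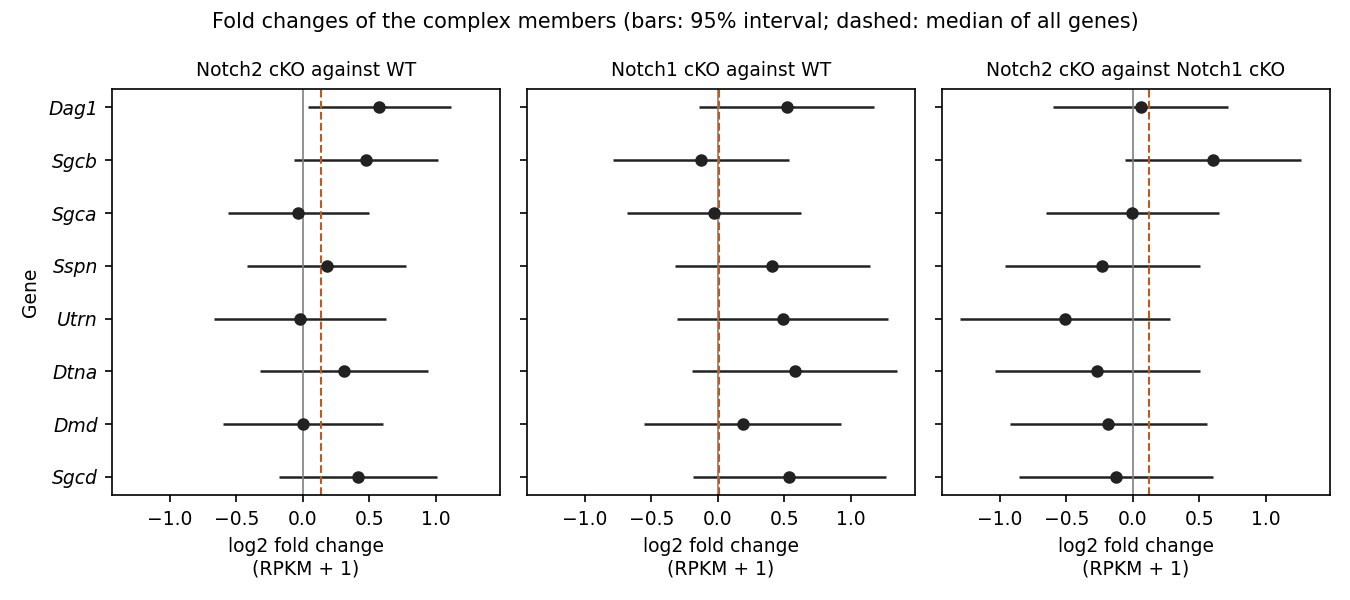
Log2 fold change on the log2(RPKM + 1) scale of the 8 genes in 3 comparisons, with 95% intervals from limma as bars and the median of all genes tested as a dashed line. All intervals include 0 except that of Dag1 in Notch2 cKO against WT, which runs from 0.04 to 1.11 and did not pass after adjustment.

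The direct comparison of Notch2 cKO with Notch1 cKO gave 0 of 8 members past the test (limma, adjusted p from 0.632 to 0.997), where 56 genes, or 0.485%, passed. No member had an unadjusted p under 0.05, as 1000 genes had. Voom called 0 of 8 members and 14 of 11541 genes, or 0.121%. Sgcb had the widest difference, 0.61 (SE 0.33, interval -0.06 to 1.27), followed by Utrn at -0.51 (SE 0.40, interval -1.30 to 0.28). The members' median was -0.16 beside 0.12 for all genes. Dag1, at 0.059, turned to -0.31 without Notch2 cKO Em4. Sspn (-0.23) and Sgca (-0.0034) also changed sign when 1 Notch2 cKO library was left out.

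The column names carry digits of unstated meaning, and library pairs of different genotype share them. For 1 such pair, Notch2 cKO Em4 minus WT Em4 was 0.55 for Dag1, 0.85 for Sgcb, 0.45 for Sgcd, 0.30 for Dtna and -0.48 for Utrn on the log2(RPKM + 1) scale. For the other pair, Notch2 cKO Em3 minus Notch1 cKO Em8 was -0.31 for Dag1, 0.20 for Sgcb, -0.15 for Sgcd, -0.36 for Dtna, -0.43 for Utrn, -0.49 for Sspn, -0.24 for Dmd and 0.0055 for Sgca. With 1 library on each side these are values without a test. The other values in the pair with WT Em4 were -0.051 for Dmd, -0.23 for Sgca and 0.20 for Sspn. Every member but Dmd had the sign of the pooled Notch2 cKO comparison. Both libraries of that pair also enter the pooled comparison, so shared signs are partly built in and are not separate evidence.

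A wider list of 42 genes around the complex held 34 that could be tested. None passed in any comparison in the fit of all 5 libraries (limma). In Notch2 cKO against WT, Notch1 cKO against WT and Notch2 cKO against Notch1 cKO, 2, 0 and 2 had an unadjusted p under 0.05. In that order 23, 27 and 13 of the 34 had a fold change above 0, with medians of 0.12, 0.22 and -0.13. Over all genes tested the shares above 0 were 68.1%, 51.5% and 61.8%, the first of which the list's count matches closely. Sntg1, Sntg2, Nos1, Krt19, Sgcz, Large2, Lama1 and Egflam were too low to test. Nos1 encodes the neuronal nitric oxide synthase that the mature complex anchors.

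Sgce, the broadly expressed ε-sarcoglycan (ENSMUSG00000004631.15, chromosome 6, 4674350 to 4747207, minus strand), measured 43.5 and 37.5 RPKM in WT, 57.2 RPKM in the Notch1 cKO, and 42.6 and 49.7 RPKM in the Notch2 cKO. It exceeded Sgca per length in 4 of 5 libraries, all but WT Em4.

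Among 7 cytoplasmic partners tested of 11, 5 had a fold change above 0 in each knockout against WT. Of all genes tested, 68.1% did so in Notch2 cKO, near the share of the partners, and 51.5% in Notch1 cKO. The most abundant was Cav3, caveolin of muscle membranes, at 35.6 and 41.7 RPKM in WT, 45.5 RPKM in the Notch1 cKO, and 44.0 and 54.9 RPKM in the Notch2 cKO. Sntb1, a syntrophin, measured 0.590 and 1.04 RPKM in WT, 0.527 RPKM in the Notch1 cKO, and 1.37 and 2.16 RPKM in the Notch2 cKO. Its Notch2 cKO libraries were the highest (log2 fold change over WT 0.60, SE 0.29, limma adjusted p = 0.64). Ank2, an ankyrin that binds dystrophin, measured 2.49 and 3.66 RPKM in WT, 4.12 RPKM in the Notch1 cKO, and 4.73 and 3.08 RPKM in the Notch2 cKO, so the Notch2 cKO pair overlapped WT.

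Of 18 genes that build the laminin-binding sugars of dystroglycan, 17 were tested, and 12 had a fold change above 0 in each knockout against WT, in Notch2 cKO near the 68.1% of all genes. Dpm3, a subunit of the enzyme that makes the mannose donor, had the smallest p of the group in Notch2 cKO. It measured 389 and 206 RPKM in WT, 337 RPKM in the Notch1 cKO, and 152 and 181 RPKM in the Notch2 cKO. Both Notch2 cKO libraries lay below the other 3. The log2 fold change against WT was -0.77 (SE 0.28, limma adjusted p = 0.371). It was -1.23 without WT Em4, -0.31 without WT Em2 and -0.44 with the length trend removed. Against the Notch1 cKO library, the log2 fold change of Dpm3 in Notch2 cKO was -1.02 (SE 0.34). Dpm3 is short, at an implied 404 bases. Over all genes tested, Notch2 cKO fold changes against WT rose with gene length (Spearman rho 0.248). Pomt1, which starts the sugar chain, measured 3.91 and 5.36 RPKM in WT, 6.58 RPKM in the Notch1 cKO, and 6.04 and 6.16 RPKM in the Notch2 cKO, so WT was lowest (Notch2 cKO log2 fold change 0.35, limma adjusted p = 0.829).

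Matrix ligands, the proteins that dystroglycan and its partners bind outside the cell, did not pass in any comparison. Of 9 tested of 11, 9 had a fold change above 0 in Notch1 cKO against WT (median 0.42) and 5 in Notch2 cKO (median 0.027). The shares of all genes tested above 0 were 51.5% and 68.1%. All 9 were lower in Notch2 cKO than in Notch1 cKO by fold change (median -0.42), and both Notch2 cKO libraries lay below the Notch1 cKO library for all 9, as they did for 25.2% of all genes tested. Limma adjusted p was at least 0.641 there. Against WT, the Notch1 cKO library lay above both WT libraries for 5 of the 9, as it did for 24.3% of all genes tested. For Lama4, Lama5, Lamb1 and Agrn it lay between WT Em2 and WT Em4. Lamc1, the laminin γ1 chain, measured 13.1 and 23.7 RPKM in WT, 29.0 RPKM in the Notch1 cKO, and 18.6 and 18.5 RPKM in the Notch2 cKO. Its Notch1 cKO log2 fold change over WT was 0.69 (SE 0.35), and 0.28 without WT Em2. Lamb1, the laminin β1 chain and the most abundant of the group, measured 34.6 and 57.5 RPKM in WT, 57.1 RPKM in the Notch1 cKO, and 42.6 and 41.8 RPKM in the Notch2 cKO. Bgn, the proteoglycan biglycan, measured 7.53 and 14.7 RPKM in WT, 17.4 RPKM in the Notch1 cKO, and 10.8 and 15.1 RPKM in the Notch2 cKO. WT Em2 was the lowest library for all 3 genes.

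**Figure D3:**
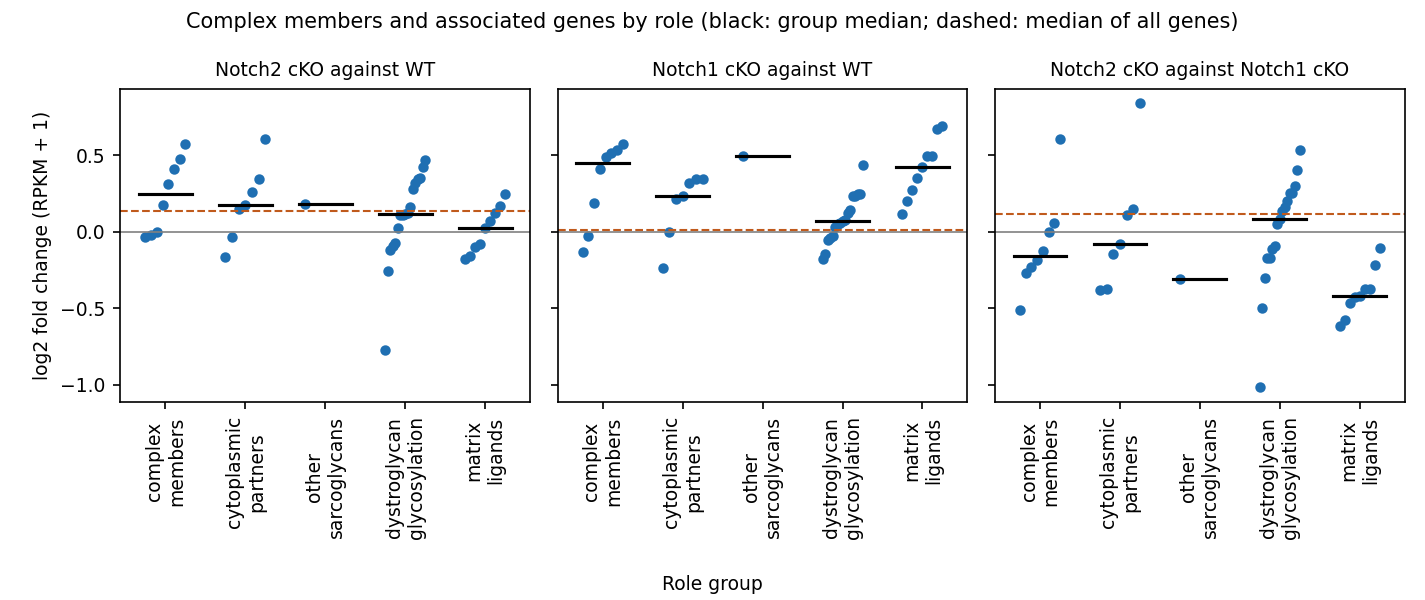
Log2 fold change on the log2(RPKM + 1) scale of the 8 members and of 34 associated genes by role (points), with the median of each group as a black bar and the median of all genes tested as a dashed line. The matrix ligands have a median of 0.42 in Notch1 cKO against WT and of -0.42 in Notch2 cKO against Notch1 cKO.

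Markers of other cells moved beside these values. The summed RPKM of 10 interstitial fibroblast genes was 143.4 and 228.2 in WT, 349.6 in the Notch1 cKO, and 234.2 and 342.1 in the Notch2 cKO. Of 9 tested, all had a fold change above 0 in Notch1 cKO (median 1.07) and 8 in Notch2 cKO (median 0.65), both against WT. Of all genes tested, 51.5% lay above 0 in Notch1 cKO and 68.1% in Notch2 cKO, with medians of 0.0091 and 0.14. Of the fibroblast genes, Mfap5 passed in Notch1 cKO (23.4 against 6.12 and 6.32 RPKM, limma adjusted p = 0.0169), as 0.0693% of all genes did. Dpt was lower in Notch2 cKO than in Notch1 cKO (limma adjusted p = 0.0425). It measured 11.7 and 13.2 RPKM in WT, 33.6 RPKM in the Notch1 cKO, and 9.76 and 14.9 RPKM in the Notch2 cKO. For Dpt the Notch1 cKO library thus stood apart, and the Notch2 cKO pair overlapped WT. The sum of 12 differentiated fibre genes was 813.6 and 770.4 in WT, 967.7 in the Notch1 cKO, and 1021 and 1129 in the Notch2 cKO. Of these, 12 of 12 had a fold change above 0 in Notch2 cKO against WT, beside 68.1% of all genes, and none passed the test. The defining lineage genes summed to 4332 to 4519 in WT, 3452 in the Notch1 cKO and 5844 to 6058 in the Notch2 cKO, mostly Actc1 (1995 to 3591 RPKM) and Myog. The progenitor genes Pax7 and Myf5 had Notch2 cKO means of 0.681 and 0.709 times those of WT, without a call. For Pax7 this rested on Notch2 cKO Em4, at 4.15 RPKM. Notch2 cKO Em3, at 10.7 RPKM, lay between the WT values of 9.90 and 12.0 RPKM. Myf5 measured 54.3 and 50.4 RPKM in WT, and 32.5 and 41.8 RPKM in the Notch2 cKO. The part of all these markers in the values of the complex was not tested.

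Other lists were lower or rested on 1 gene. Smooth muscle and pericyte genes summed to 461.0 to 480.0 RPKM in WT, 592.9 in the Notch1 cKO and 597.6 to 609.4 in the Notch2 cKO, mostly Acta2, which fetal skeletal muscle also expresses, and 4 of 10 could be tested. Endothelial genes summed to 20.83 to 26.71 RPKM in WT, 39.95 in the Notch1 cKO and 22.41 to 26.83 in the Notch2 cKO, with 3 of 8 tested. Most of each endothelial sum was Egfl7, at 15.9 and 18.1 RPKM in WT, 33.9 RPKM in the Notch1 cKO, and 17.2 and 19.5 RPKM in the Notch2 cKO. Schwann cell genes summed to 3.26 to 3.79 RPKM in WT, 3.71 in the Notch1 cKO and 5.06 to 7.31 in the Notch2 cKO, with 2 of 8 tested. Cdh19 was listed at 0 in both WT libraries and Foxd3 in WT Em4. Their part in the results was not tested either.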

How the data were processed

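Libraries of sorted-cell RNA (SMART-Seq v4, low input) were sequenced from both ends, per the labels' protocols. The authors deposited RPKM values for 27179 rows in 5 libraries, per the file headers. Build mm10 and bcl2fastq 2.20.0 stand in the submitters' processing notes. The annotation, the aligner and the counter were not given in the sources used here. The 1306 rows without a name held 2.19% to 3.07% of summed RPKM and were left out.

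Columns name the group, an Em tag and digits, with no replicate number, so each was assigned to its group only. Groups were compared with limma 3.58.1 in R 4.3.3 (lmFit, eBayes with a trend) on log2(RPKM + 1), 1 mean per group, all 5 libraries, genes whose mean reached 1 RPKM, and Benjamini-Hochberg adjustment at 0.05 over 11543 genes. Fold changes on this scale understate those of low genes. The fit had 2 residual degrees of freedom and a prior of 103.8. Each SE therefore rests mostly on the spread of genes at a similar level, and little on the gene's own replicates. In Notch2 cKO against WT, Dag1 and Sgca each had an SE of 0.27, although their replicate gaps differed. An exact permutation test of 2 against 2 cannot give a p below 0.333.

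RPKM steps gave the library totals: 93.25% of 2000 low genes then had a whole length within 0.02 bases, against 4% by chance, and whole reads within 0.003 were recovered for 23438 of 23440 genes above 0. Voom was run on these reads. Deeper libraries carry less counting error, which matters most for Sgcd. Positions are from GENCODE M21 (GRCm38), matched by symbol. The authors' annotation may differ. Promoter windows are from RefSeq. The fit was tested on simulated data.

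Some genes of the wider list are not reported here and were left out of its counts. The members, the wider list and the marker lists were chosen with earlier results of these data known. Named in the text are all members, Sgce, the wider-list gene of highest mean and of smallest p per comparison in each role group, and the 3 nearest profiles for Dmd, Utrn and Sgca. Notch1, Notch2, the fibroblast markers past the threshold, Lama4, Lama5, Agrn, Actc1, Myog, Pax7, Myf5 and Egfl7 were added after their values were seen. Alternatives were other pseudocounts, filters, scalings, removal of a length trend, voom and leaving out each library.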

Additional observations from a re-analysis of the deposited data

How the results depend on the processing

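No member was called in any of the 38 alternatives run over the 3 comparisons, with a smallest adjusted p of 0.12 (Dag1, Notch2 cKO against WT, without WT Em4). Counts over all genes depended strongly on the setting. In Notch2 cKO against WT the 62 calls became 0 with no filter, 33 at a mean of at least 5 RPKM, 4 with quantile normalization, 1 with the length trend removed, 1 with voom, and 13 to 278 with 1 library left out. The 41 higher and 21 lower calls became 41 and 40 with median-of-ratios scaling. In Notch1 cKO against WT the 8 calls became 15 with a pseudocount of 0.1, 0 with no filter, 22 with median-of-ratios scaling, 1 with quantile normalization, 0 with the length trend removed, 3 with voom, and 1 to 6 with 1 library left out. In Notch2 cKO against Notch1 cKO the 56 calls became 0, 86, 13, 0 and 14 with no filter, median-of-ratios scaling, quantile normalization, the length trend removed and voom. Where limma called 0 genes, those with an unadjusted p under 0.05 numbered 1693, 722 and 1710 without a filter, and 287 and 905 with the length trend removed. Scaling moved the median of all genes in Notch2 cKO against WT from 0.14 to -0.045 (median-of-ratios) and 0.0033 (quantile). The cause of these shifts was not tested. The stricter filter leaves out Dmd, Utrn, Sgcd and Dtna.

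Fold changes near 0 reversed. In Notch2 cKO against WT, median-of-ratios scaling gave -0.13 for Dmd, -0.0195 for Sspn, -0.0298 for Sgce and -0.13 for Lamc1. Quantile normalization gave -0.17 for Dmd, -0.022 for Sspn and -0.11 for Lamc1. Removing the length trend gave 0.0096 for Utrn, -0.028 for Sspn and -0.00045 for Lamc1. With 1 library left out, Dmd ran from -0.10 to 0.11, Utrn from -0.40 to 0.35, Sgca from -0.22 to 0.15, Sspn from -0.086 to 0.44, Lamc1 from -0.34 to 0.48, Lamb1 from -0.44 to 0.28 and Bgn from -0.20 to 0.69. In Notch1 cKO against WT, Sgca became 0.016 with quantile normalization. There the ranges with 1 library left out were -0.22 to 0.16 for Sgca, -0.21 to 0.71 for Dpm3 and -0.0090 to 0.71 for Lamb1. In Notch2 cKO against Notch1 cKO, removing the length trend gave 0.01 for Dmd and -0.10 for Dag1, median-of-ratios scaling gave -0.083 for Dag1 and -0.032 for Cav3, and quantile normalization gave -0.028 for Cav3. The ranges with 1 library left out were -0.31 to 0.43 for Dag1, -0.012 to 0.0055 for Sgca, -0.49 to 0.035 for Sspn, -0.33 to 0.16 for Ank2 and -0.048 to 0.26 for Cav3. The log2 ratio of Dmd to Utrn, computed on RPKM + 1, moved for 3 libraries, to -1.19 in WT Em4, -1.22 in the Notch1 cKO and -1.03 in Notch2 cKO Em3, from -1.59, -1.59 and -1.45.

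No paired analysis was possible because the columns carry no replicate number, and the digits they do carry are shared by only 1 library pair of any 2 genotypes. The single Notch1 cKO library and the 31 to 68 reads for Sgcd limit the precision of those values.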
